A study of Mus musculus with 40 samples.

Results

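RNA polymerase I and rRNA processing were followed through 10 genes in mouse cerebellum: the polymerase subunits Polr1a, Polr1b, Polr1c and Polr1e, the initiation factors Ubtf, Rrn3 and Taf1b, and the processing factors Ncl, Fbl and Wdr18. They were chosen by name as RNA polymerase I machinery, which the CSB protein is known to support, and as rRNA processing factors. Each symbol matched 1 row by its Ensembl gene ID. The members are therefore 10 of the 54331 genes in the table. All 10 passed the filter on low values, a normalised read count of at least 10 in at least 4 libraries, which left 21367 genes for testing.

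RNA polymerase I transcribes the ribosomal DNA repeats in the nucleolus. Ubtf binds along the repeats and keeps them open, the SL1 complex, which holds Taf1b, marks the promoter, and Rrn3 brings the polymerase to it in a form that can start. The precursor RNA is then methylated, cut and assembled with ribosomal proteins, and CSB, a DNA-dependent ATPase encoded by Ercc6 and best known for repair coupled to transcription by RNA polymerase II, is also found with RNA polymerase I in the nucleolus.

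The libraries were made from total RNA of cerebella of male C57BL6 mice with the genotype labels WT, INDY, CSB and DKO, after depletion of ribosomal RNA. SD stands for the standard diet and KD for the ketogenic one. WT had 4 libraries on each diet, INDY 6 on each, CSB 6 on SD and 5 on KD, and DKO 4 on SD and 5 on KD, 40 libraries in 8 groups. INDY is a common name of Slc13a5, a citrate transporter of the plasma membrane. The labels spell out neither the alleles nor the animals' ages, and they do not say whether each library came from its own animal, so p-values measure the spread between these libraries, which may be technical.

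The values are normalised estimated read counts, so depth is unknown. Among 21 INDY and DKO libraries, 19 had Slc13a5 at 0 and the highest had 0.934, and it lay between 82.06 and 161.2 in all WT and CSB libraries. Ercc6 ranged from 382.5 to 876.2 in the 20 CSB and DKO libraries, with a median of 616.6, and from 632.7 to 1070 in the 20 WT and INDY libraries, with a median of 905.7. The lowest of the WT and INDY values, 632.7, belonged to the library labelled WT KD 25. That library also had a value of 1041 for the predicted gene Gm6768, which was listed at 0 in the other 19 WT and INDY libraries and lay between 929.3 and 1245 in all 20 CSB and DKO libraries. Its Gm6768 value goes against its label. Its Ercc6 value lies within the range of the CSB and DKO libraries, but the ranges overlap, with 876.2 in DKO KD 23. Ercc6 alone therefore does not tell the genotype of a library. Some results that rest on the library labelled WT KD 25 are given with and without it, and where no value without it stands, it is included.

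Of the 12 markers of cerebellar granule cells and the 12 of Purkinje cells, none was at 0 in every library. The library DKO SD 1 stood apart: its mean log2 level was 7.10 for the granule cell list and 8.14 for the Purkinje cell list, where the next lowest library, CSB SD 16, had 9.72 and 10.2. Its level of forebrain markers, 9.98, was the highest of the 12 libraries above 6, which fell in 6 of the 8 groups (3 of the 4 WT KD libraries and none of the WT SD libraries). Some results that rest on DKO SD 1 are likewise given without it, and the others include it.

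The start regions of 4 members are shown because results below turn on them: Wdr18 is the only member called in any comparison, Rrn3 and Ncl are the members whose values ran closest to those of Fbl, and Polr1b ran closest to the markers of cerebellar neurons. The windows come from RefSeq on GRCm38.p6, cover 250 bases before to 50 after each start, and read 5′ to 3′ on the gene's own strand. Their positions are chr10:79959902-79960201 on the plus strand, chr16:13780449-13780748 on the plus strand, chr1:86359406-86359705 on the minus strand and chr2:129100746-129101045 on the plus strand. Capitals mark matches, on either strand, to CACGTG (an E-box), CCGGAAG (an ETS core), GGGCGG (a GC box), GCATGCG (an NRF1 core), CTCGCGAG and TATAAA.
Wdr18: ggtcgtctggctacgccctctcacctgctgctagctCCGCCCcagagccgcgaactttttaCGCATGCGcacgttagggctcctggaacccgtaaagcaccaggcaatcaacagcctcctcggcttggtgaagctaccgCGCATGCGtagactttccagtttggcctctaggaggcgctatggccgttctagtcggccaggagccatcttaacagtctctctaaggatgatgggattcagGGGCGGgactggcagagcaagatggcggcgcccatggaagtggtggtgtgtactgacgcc
Rrn3: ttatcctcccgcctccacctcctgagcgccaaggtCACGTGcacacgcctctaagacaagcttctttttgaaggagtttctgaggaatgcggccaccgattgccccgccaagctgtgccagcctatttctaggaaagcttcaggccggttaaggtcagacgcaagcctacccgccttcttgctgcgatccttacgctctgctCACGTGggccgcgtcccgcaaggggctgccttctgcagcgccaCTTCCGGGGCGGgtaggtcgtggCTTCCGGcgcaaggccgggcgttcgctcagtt
Ncl: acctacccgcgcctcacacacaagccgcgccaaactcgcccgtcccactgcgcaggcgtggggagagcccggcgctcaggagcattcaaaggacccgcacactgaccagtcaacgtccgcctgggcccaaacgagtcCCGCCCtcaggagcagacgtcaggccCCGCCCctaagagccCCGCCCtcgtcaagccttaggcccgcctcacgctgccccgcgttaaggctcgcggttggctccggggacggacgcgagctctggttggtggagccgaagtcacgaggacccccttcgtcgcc
Polr1b: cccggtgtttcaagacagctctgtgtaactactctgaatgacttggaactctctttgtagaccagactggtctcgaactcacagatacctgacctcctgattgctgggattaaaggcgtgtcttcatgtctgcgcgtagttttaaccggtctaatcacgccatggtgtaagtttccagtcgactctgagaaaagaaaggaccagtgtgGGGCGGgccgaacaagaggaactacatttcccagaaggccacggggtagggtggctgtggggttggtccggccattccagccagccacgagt

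Wdr18 held 2 GC boxes and 2 places where GCATGCG was matched on both strands, with the matches overlapping, and GCATGCG occurred in 3.58% of all 32851 RefSeq windows of this length. Rrn3 held 2 CACGTG matches, a sequence found in 7.15% of all windows, besides 2 CCGGAAG matches (8.86% of windows) and 1 GC box, which overlaps one of the CCGGAAG matches. Ncl held 3 GC boxes and Polr1b 1, against 35.7% of all windows with at least 1. Neither CTCGCGAG (0.919% of windows) nor TATAAA (13.6%) occurred in any window of the 9 members with an entry. Ubtf has 6 annotated starts, and Fbl has no entry in the table. These matches describe letters, and no factor's binding was measured.

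Across all 40 libraries, 9 of the 10 members varied less than the middle of all tested genes. These ranks, and the median of the group ranges below, are over tested genes of every level. Genes of similar level were not compared, so whether the ranks follow the level of a gene was not tested. Rrn3 varied least, from 1707 in INDY KD 20 to 2244 in DKO SD 36, with a coefficient of variation of 5.9%, and its standard deviation on the log2 scale of 0.0863 lay at percentile 0.435 of all tested genes. Polr1e, with the lowest mean of the 10 (131.7), varied most, from 73.28 in CSB KD 43 to 212.1 in DKO SD 34. Its coefficient of variation was 22.6% and its standard deviation lay at percentile 51.3. The other 8 members lay between percentile 13.4 (Ubtf) and 32 (Polr1b). The means of the 8 groups differed by at most 0.48 on the log2 scale, in Wdr18, and by 0.13 in Rrn3, where the median of all tested genes was 0.48. DKO SD had the highest mean of the 8 groups for 5 of the 10 members, Polr1a, Polr1e, Rrn3, Ncl and Fbl, and WT SD the lowest for 3, Rrn3, Fbl and Wdr18. How many of all tested genes had these groups at the extremes was not computed, so the counts are not read as a result about the members. They include the DKO SD library that stood apart by its marker levels.

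**Figure D1:**
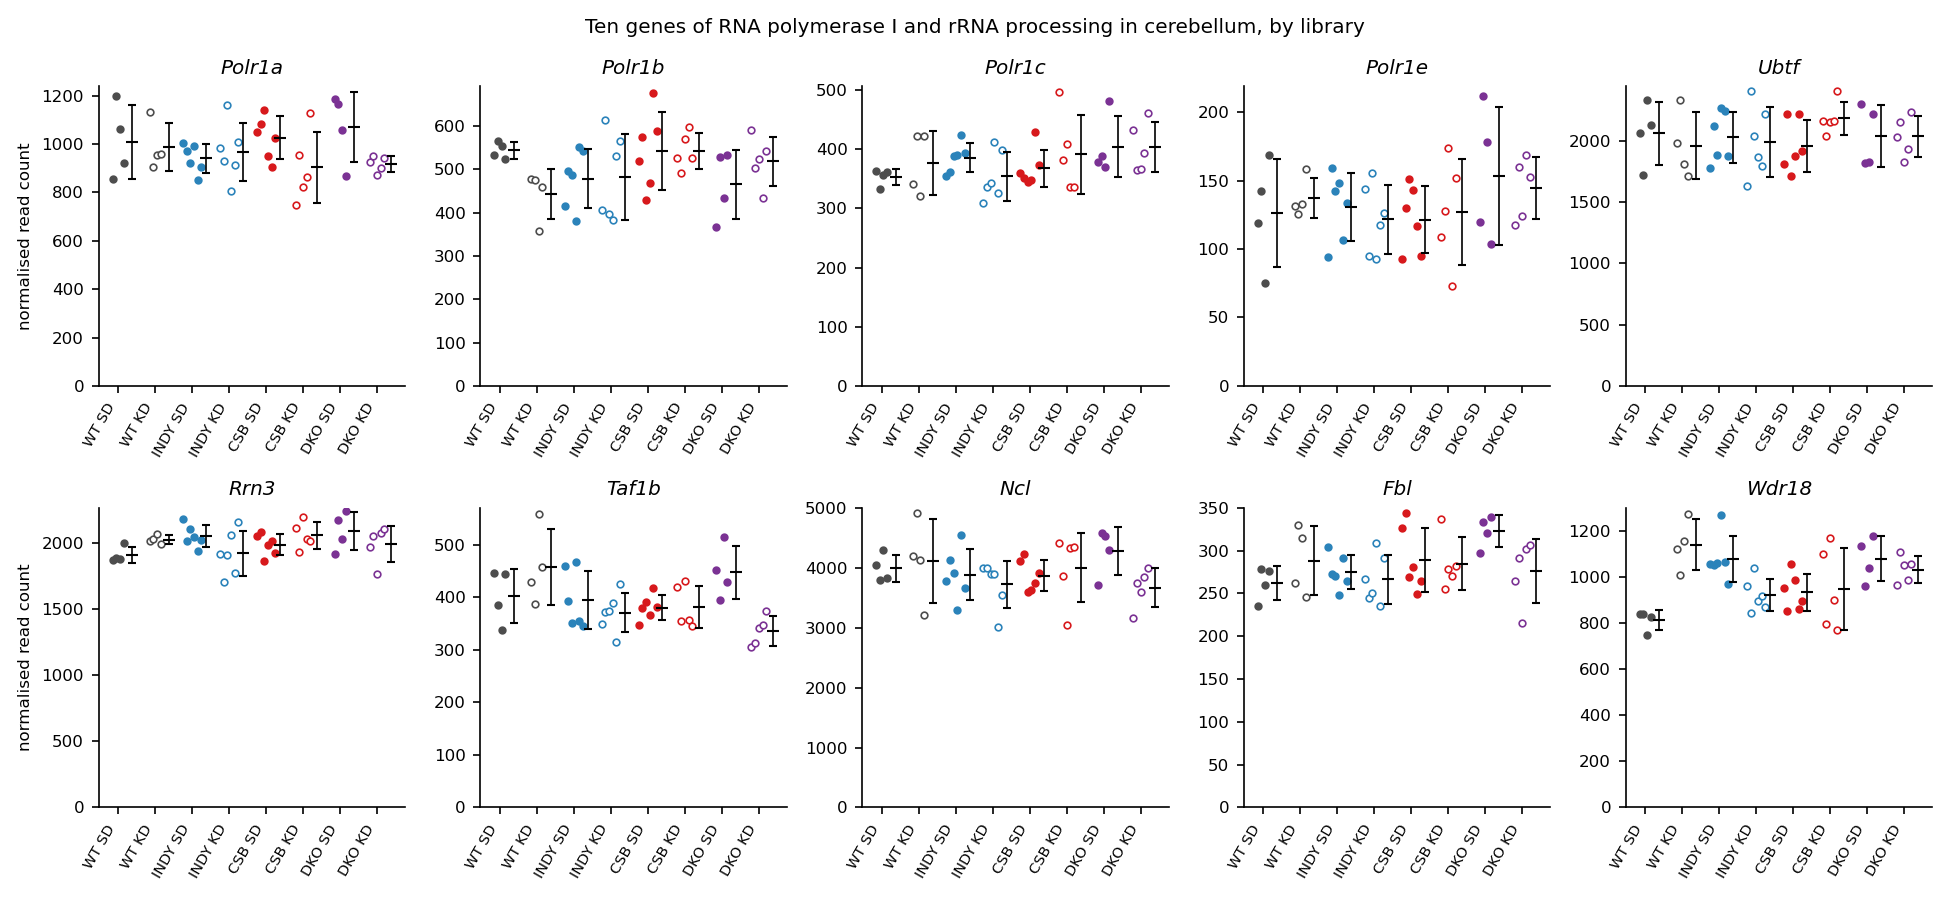
Normalised read count of each member (y axis, from 0) in every library, by genotype and diet (x axis), with filled points for SD, open points for KD, and black bars for the mean ± SD of each group. Rrn3 spans 1707 to 2244 over the 40 libraries, and the 4 WT SD libraries of Wdr18 lie between 748.9 and 839.6, below all 4 WT KD libraries.

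The first question was whether the machinery differed in the genotypes with lower Ercc6. The average of CSB minus WT and DKO minus INDY over both diets (20 libraries against 20) called none of the 10 members at an adjusted p under 0.05 (limma with Benjamini-Hochberg adjustment over all tested genes). In the same comparison 0.796% of tested genes, 170, were called, 121 of them higher. None of the 10 had an unadjusted p under 0.05 either, against 18.8% of all genes, and none was called without the library labelled WT KD 25 or without DKO SD 1. Of the members, 9 lay above 0, with a median log2 difference of 0.037, where 52.1% of all genes lay above 0 with a median of 0.007. Ercc6 itself fell by 0.55 on the log2 scale (adjusted p = 3.27e-06). In bulk tissue, fewer cells of a type and less RNA per cell cannot be told apart, here and in every comparison below.

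Among the polymerase subunits, Polr1a, the largest catalytic subunit (chromosome 6, 71909053 to 71984935 on GRCm38), ranged from 749.5 through a median of 950 to 1187 in CSB and DKO and from 804 through 954.4 to 1200 in WT and INDY. The ranges overlapped almost wholly, and the log2 difference was 0.002 with a 95% interval of -0.103 to 0.107. Polr1b, the other catalytic subunit (chromosome 2, 129100995 to 129126594), had medians of 525.7 and 490.9 and a difference of 0.09 (-0.047 to 0.225). Polr1c, a subunit that RNA polymerase I shares with RNA polymerase III (chromosome 17, 46243920 to 46248054), ranged from 335.3 through 375.9 to 497.3 against 308.5 through 361.5 to 423.3. In 5 CSB and DKO libraries Polr1c lay above every WT and INDY library, and the difference was 0.09 with an interval of -0.016 to 0.197. Polr1e, which with its partner subunit binds the core enzyme and is specific to RNA polymerase I (chromosome 4, 45018583 to 45036565), had the widest interval of the 10, -0.158 to 0.292 around 0.067.

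Among the initiation factors, Ubtf (chromosome 11, 102304560 to 102319742) ranged from 1718 through 2094 to 2405 in CSB and DKO and from 1634 through 2012 to 2410 in WT and INDY, so that every CSB and DKO library lay within the WT and INDY range. Its log2 difference was 0.035 with an interval of -0.071 to 0.140. For Rrn3 (chromosome 16, 13780708 to 13814839) the difference was 0.040 and the interval -0.022 to 0.102, the narrowest of the 10. Taf1b (chromosome 12, 24498359 to 24558539) was the only member below 0, at -0.072 (-0.180 to 0.036), with medians of 376.8 and 388.6.

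Among the processing factors, Ncl, nucleolin, an RNA-binding protein of the earliest precursor (chromosome 1, 86344719 to 86359400), had medians of 3885 and 3910 and a difference of 0.010 (-0.095 to 0.115). Fbl, fibrillarin, the methyltransferase of box C/D small nucleolar RNPs (chromosome 7, 28169710 to 28179269), ranged from 216 through 286.9 to 343.9 in CSB and DKO and from 235.3 through 268.8 to 330.4 in WT and INDY. Its difference of 0.098 (-0.010 to 0.207, adjusted p = 0.316) was the highest of the 10 and did not pass the test. The value of Fbl is uncertain where reads are shared: a processed pseudogene, Gm5812, matches it at 953 of 984 bases, and a transcript of Tulp4 matches it at 687 of 690 bases. Gm5812 was listed at 0 in 38 of 40 libraries and reached 4.575, while Tulp4 as a whole gene ranged from 10560 to 32880. Wdr18, a subunit of the complex with Pelp1 and Tex10 that acts late in maturation of the large ribosomal subunit (chromosome 10, 79960152 to 79970203), differed by 0.020 (-0.075 to 0.116).

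**Figure D2:**
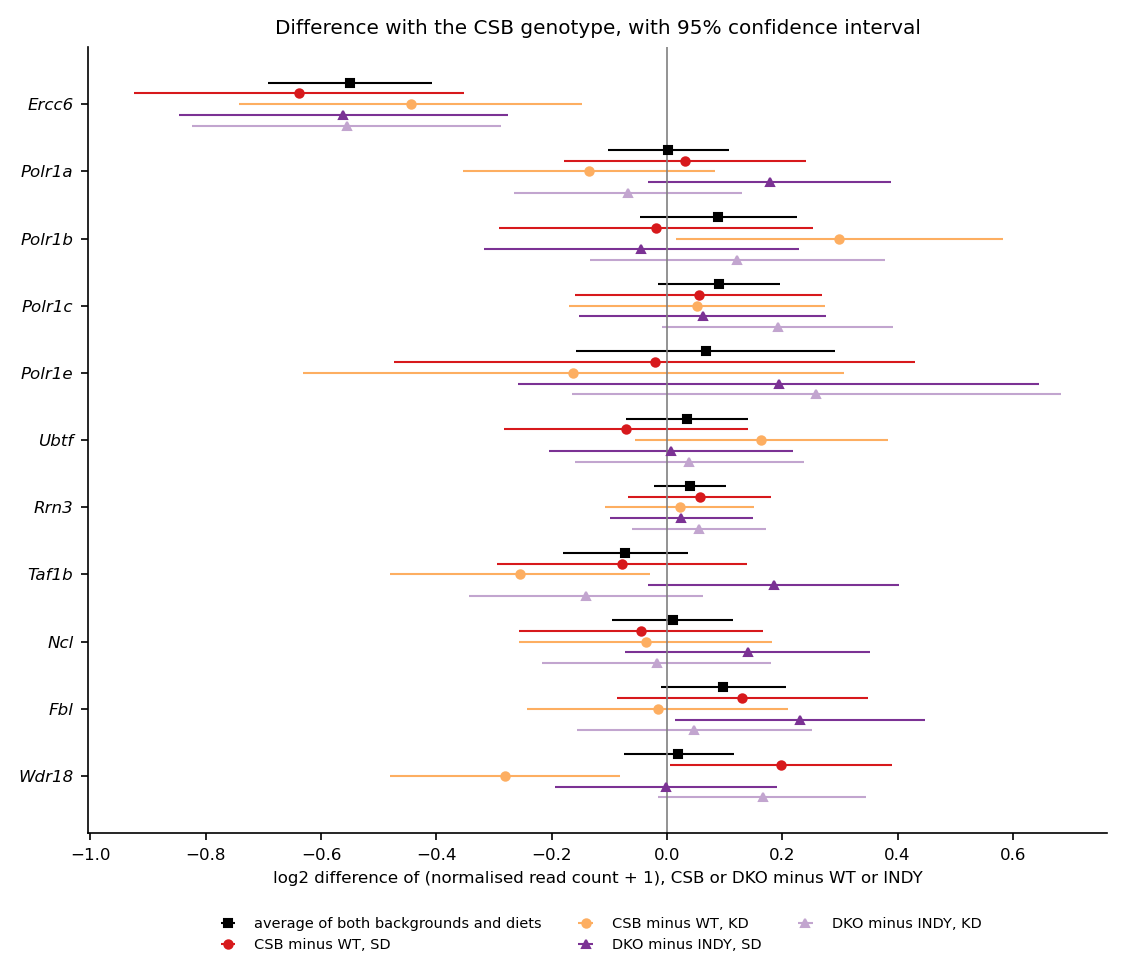
Log2 difference of (normalised read count + 1) with its 95% confidence interval (x axis) for Ercc6 and the 10 members (y axis), as the average over both backgrounds and diets (black squares) and for each of the 4 comparisons it averages. Ercc6 lies at -0.55 in the average, and the black intervals of all 10 members include 0.

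The 4 comparisons behind this average called no member either, where CSB minus WT called 0.136% of tested genes on SD and 0.00468% on KD, and DKO minus INDY called 0.0608% on SD and 0.0983% on KD. At an unadjusted p under 0.05, 1, 3, 1 and 0 members passed in that order, against 7.88%, 8.23%, 6.16% and 8.34% of all genes. Polr1b in CSB minus WT on KD was one of them, with 541.9 ± 41.1 (SD, n = 5) against 442.2 ± 57.5 (n = 4) and a log2 difference of 0.30 (adjusted p = 0.594). The library labelled WT KD 25 had the lowest Polr1b of all 40, 356.9, and the difference was 0.20 without it. The granule cell markers, which ran with Polr1b over all libraries, had a mean log2 level of 11.4 in CSB KD and 10.9 in WT KD. With the forebrain, Purkinje cell and granule cell levels as covariates, a set chosen after seeing the data, the difference was 0.18 (limma, adjusted p = 0.751). Further than these values, the part of cell types in this difference was not tested. Wdr18 lay at 0.20 in CSB minus WT on SD (adjusted p = 0.612) and at -0.28 on KD (adjusted p = 0.585). The sign turned between SD and KD in 5 of the 10 members, none of them called, with the library labelled WT KD 25 included. It went from above to below 0 in Wdr18, in Polr1a (0.032 and -0.135) and in Fbl (0.131 and -0.016). It went from below to above 0 in Polr1b (-0.019 and 0.299) and in Ubtf (-0.071 and 0.164). The share of all tested genes whose sign turned was not computed, so this count is not read as a result about the members.

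Averaged over both diets and over the WT and CSB backgrounds, the INDY genotype (INDY and DKO minus WT and CSB) called 0 of 10 members, where 0.0140% of tested genes were called. The members' log2 differences ran from -0.094 in Polr1b to 0.113 in Wdr18, with a median of 0.002 against 0.005 for all genes. Wdr18 was the only one at an unadjusted p under 0.05, against 9.38% of all genes, and its adjusted p was 0.511. On single diets, INDY minus WT called no member, where 0.00468% of tested genes were called on SD and 0.00936% on KD. At an unadjusted p under 0.05 stood Wdr18 on SD, and on KD Taf1b at -0.30 (adjusted p = 0.502; -0.20 without the library labelled WT KD 25) and Wdr18 at -0.30 (adjusted p = 0.424), against 14.3% and 6.59% of all genes.

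DKO minus CSB, the same genotype step on the CSB background, called no member, where 0.00468% of tested genes were called on SD and 0.0281% on KD. On SD Taf1b lay at 0.23 (447.9 ± 50.7, n = 4, against 380.5 ± 23.7, n = 6) and Wdr18 at 0.21, the 2 members with an unadjusted p under 0.05, against 13.6% of all genes, with adjusted p of 0.341 and 0.338. On KD 0 members passed that limit, against 1.73% of all genes. Whether the CSB difference itself depended on the INDY genotype or on the diet was tested in 2 further comparisons, which called 0 of 10 members and 0% of tested genes each. The first had 0 members at an unadjusted p under 0.05 (3.10% of all genes) and the second 1, Taf1b at -0.25 (9.08% of all genes, adjusted p = 0.532). The comparisons with WT share the WT libraries, so their values stand side by side and are not counted against each other.

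The ketogenic diet over all 4 genotypes called 0 of 10 members, and 0% of tested genes. None of the members and 3.16% of all genes had an unadjusted p under 0.05. The members ran from -0.099 in Polr1a (interval -0.204 to 0.005) to 0.050 in Wdr18 (-0.046 to 0.146). Within single genotypes no member was called either, where 0.00468% of tested genes were called in DKO and 0% in the other 3. At an unadjusted p under 0.05 stood Polr1b and Wdr18 in WT, Wdr18 in INDY, no member in CSB, and Taf1b, Ncl and Fbl in DKO, against 13.4%, 4.63%, 3.43% and 8.11% of all genes. All 3 members in DKO lay lower on KD.

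Wdr18 was the only member called in any comparison. In WT SD its values were 839.6, 838.8, 748.9 and 827.5 in libraries 39 to 42, and in DKO SD they were 1137, 961.6, 1042 and 1179 in libraries 1, 34, 35 and 36. Every DKO SD library lay above every WT SD library. The share of all tested genes without overlap was not computed, here or for the groups compared below. Such separation is therefore given as a description and is not read as a result about a member. The means of 1080 ± 97.5 (SD, n = 4) and 813.7 ± 43.6 (n = 4) gave a log2 difference of 0.41 with a standard error of 0.10 (limma, adjusted p = 0.0351). In this comparison 1 of 10 members was called, where 5.92% of tested genes, 1265, were called, and 2, Wdr18 and Fbl, had an unadjusted p under 0.05, against 31.5% of all genes. Without DKO SD 1 the difference was 0.38 and the adjusted p 0.0676, and the count of all genes called fell to 101. The call was also lost without DKO SD 35, WT SD 39, WT SD 41 or WT SD 42, with adjusted p between 0.059 and 0.0977, while the difference kept between 0.37 and 0.42. It was lost as well with no filter (adjusted p = 0.0562) and with only the groups compared (adjusted p = 0.0515). With marker levels added as covariates the call was lost too, at 0.39 (adjusted p = 0.326) for forebrain and liver and 0.31 (adjusted p = 0.226) for forebrain, Purkinje cells and granule cells. The mean log2 level of the 14 liver markers was 1.73 in WT SD (range 1.555 to 2.004) and 4.013 in DKO SD (1.671 to 6.991). Its part in the result was not tested further.

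The WT SD group was the low one for Wdr18 in other comparisons too, which share these 4 libraries. INDY SD ranged from 969.9 through 1062 to 1269, above all 4 WT SD libraries, and the log2 difference was 0.41 (interval 0.214 to 0.599, adjusted p = 0.319). In CSB SD the range was 854.6 through 924.8 to 1059, also above WT SD. WT KD, with 1123, 1008, 1156 and 1277 in libraries 7, 12, 25 and 28, had the highest mean of the 8 groups, 1141 ± 111 (n = 4). The KD minus SD difference in WT was 0.48 (interval 0.273 to 0.694, adjusted p = 0.183), and 0.48 without the library labelled WT KD 25 (adjusted p = 0.218).

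In INDY the diet difference of Wdr18 had the other sign: INDY KD ranged from 847 through 907.4 to 1042, and KD minus SD was -0.23 (adjusted p = 0.981). The test of the difference between the diet responses of INDY and WT gave -0.71 with a standard error of 0.13 (limma, adjusted p = 0.0429), which called 1 of 10 members, where 0.0140% of tested genes, 3, were called. Without the library labelled WT KD 25 the value was -0.70 and the adjusted p 0.0855. Of the 40 fits with 1 library left out, 27 ended the call, with values from -0.77 to -0.66 over all 40. The diet responses of CSB and DKO differed from that of WT by -0.48 and -0.54 (adjusted p = 0.760 and 0.114), neither of them called. All 3 comparisons subtract the same 8 WT libraries, so their shared direction is not read as a result. The tests of the diet responses of CSB and DKO against that of WT called 0 of 10 members and 0% of tested genes. At an unadjusted p under 0.05 the first passed 1 member, Wdr18 (6.41% of all genes), and the second 4, Wdr18, Polr1b, Taf1b and Fbl (18.7% of all genes), while the test for INDY passed Wdr18 and Rrn3 (14.3%).

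Choroid plexus markers differed between some of the same groups as Wdr18. The mean log2 level of the 10 markers was 8.57 (range 7.53 to 9.32) in WT SD and 6.31 (4.15 to 8.35) in WT KD, and 7.64 and 7.96 in INDY SD and INDY KD. In CSB it was 8.30 on SD and 6.87 on KD, where the mean log2 value of Wdr18 was 9.87 on both diets, and in DKO it was 7.94 and 7.91. Microglia markers, 12 genes, lay at 8.44 in WT SD, 8.97 in WT KD and 9.35 in DKO SD, and at 9.15 and 9.09 in CSB SD and CSB KD. With the choroid plexus level as a covariate, the difference between the diet responses of INDY and WT was -0.56 (adjusted p = 0.194), and DKO minus WT on SD was 0.37 (adjusted p = 0.0368), where the other 2 covariate sets ended that call. Further than these values, their part in the result was not tested.

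Taf1b showed its lowest mean in DKO KD and its highest in WT KD, at 8.393 and 8.83 on the log2 scale. DKO SD came next to WT KD, at 8.803, and without the library labelled WT KD 25 the WT KD mean lies below it. The DKO KD libraries 2, 3, 23, 24 and 47 had 305.9, 312.5, 341, 346.6 and 374.4, and the WT KD libraries 7, 12, 25 and 28 had 429.5, 387.8, 558.6 and 457.2. Every DKO KD library lay below every WT KD library. The log2 difference of -0.44 (interval -0.662 to -0.212) had an unadjusted p of 0.000364 and an adjusted p of 0.324, so that it was not called. In this comparison 0 of 10 members were called, where 0.00936% of tested genes were, and 1 had an unadjusted p under 0.05, against 6.39% of all genes. It was -0.34 without the library labelled WT KD 25, which had the highest Taf1b of all 40 libraries.

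DKO KD also lay below DKO SD for Taf1b, where libraries 1, 34, 35 and 36 had 451.7, 395.3, 515.5 and 429.1, with no overlap. KD minus SD in DKO was -0.41 (adjusted p = 0.587), and -0.40 without DKO SD 1. The difference between the diet responses of DKO and WT was -0.59 with a standard error of 0.16 (adjusted p = 0.114), and -0.49 without the library labelled WT KD 25. It passed the threshold in 1 alternative, without DKO SD 36, with an adjusted p of 0.0472.

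Fbl had its highest mean in DKO SD, with 297.7, 333.2, 320.3 and 339.5 in libraries 1, 34, 35 and 36. The WT SD libraries 39 to 42 had 235.3, 278.8, 260.1 and 275.8, all below. The log2 difference of 0.30 (interval 0.060 to 0.536) had an adjusted p of 0.0856, and the difference from INDY SD was 0.23 (adjusted p = 0.774). Without DKO SD 1 the first was 0.34 (adjusted p = 0.0987). Fbl, Ncl and Taf1b each lay lower in DKO KD than in DKO SD, by 0.23, 0.22 and 0.41 on the log2 scale, none of them called. Without DKO KD 23 the difference in Fbl was -0.148.

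The members did not vary as one block. Over the 40 libraries, which share genotype and diet groups, Pearson's r of log2 values for the 45 pairs had a median of 0.086, with 29 pairs above 0. Rrn3 and Fbl ran closest, with r of 0.696 (Spearman's rho 0.710), 0.640 without the 2 libraries farthest from the median of Rrn3, and 0.681 after each group's mean was taken out. Ncl and Fbl had r of 0.542 (rho 0.499) and 0.50 within groups. Polr1a and Polr1c, which sit in one enzyme, had the lowest r, -0.503 (rho -0.465), -0.575 within groups and -0.383 without the 2 libraries farthest from the median of Polr1a. Polr1b had -0.480 with Wdr18 (rho -0.460). Within groups the 45 pairs had a median r of -0.003.

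**Figure D3:**
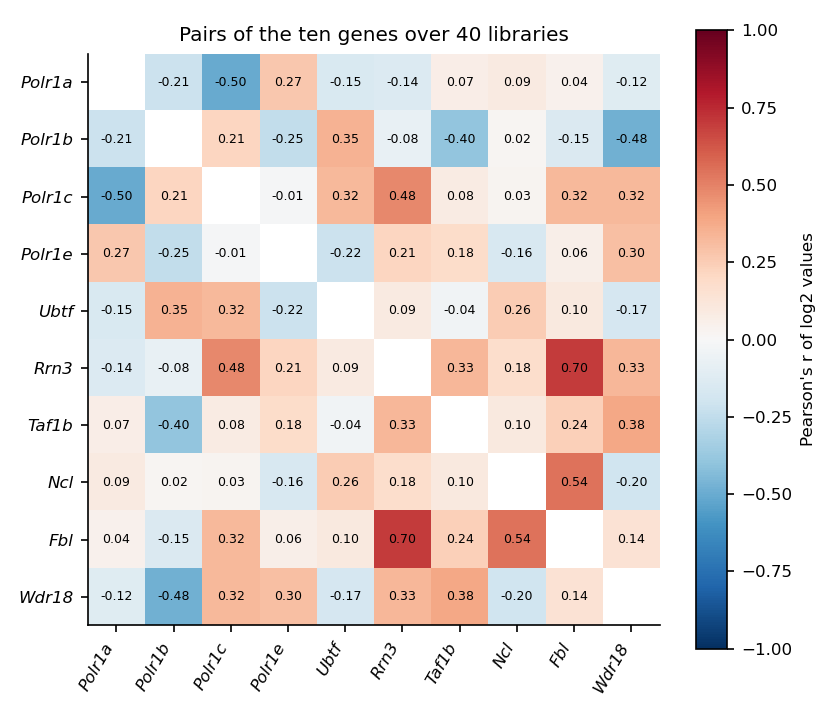
Pearson's r of log2 values over the 40 libraries for every pair of the 10 members (both axes), from blue at -1 to red at 1. Rrn3 with Fbl is the reddest pair at 0.70 and Polr1a with Polr1c the bluest at -0.50.

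The gene closest to each member was sought among 14176 tested genes with a mean of at least 20. The highest r of so many is high through the size of the search alone, so these values are descriptions and are not set against those between members. The closest to Polr1c was Eef1akmt1 (r = 0.871), a lysine methyltransferase of elongation factor eEF1A, and the closest to Ubtf was Vps37b (0.866), a subunit of the ESCRT-I sorting complex. Polr1b had Ppp2r1b, a scaffold subunit of protein phosphatase 2A, and Syt9, a synaptotagmin, both at 0.857. Gdpd1 was closest to Rrn3 (0.833), Fkbp8 to Wdr18 (0.816), Copb2 to Fbl (0.762), Hmgn5 to Ncl (0.751) and Pcdhb7 to Taf1b (0.647). Polr1a and Polr1e had no gene as close, with Itga9 at 0.615 and Tmem35a at 0.584. Among the 3 closest genes of each member, Hnrnpa1 stood with Fbl (0.748) and Anp32e with Ncl (0.734).

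Levels of cell type markers went along with some members. Polr1b had r of 0.730 with the mean level of 12 granule cell markers over the 40 libraries (rho 0.717), 0.745 within groups and 0.797 without the 2 farthest libraries, one of them DKO SD 1. With the Purkinje cell list r was 0.706, with the forebrain list -0.659 and with the microglia list -0.460 (-0.742 within groups). The 4 Polr1b values of DKO SD were 367.5, 527.3, 432.8 and 532.6 in libraries 1, 34, 35 and 36, the lowest in DKO SD 1. Ubtf had r of -0.607 with 10 oligodendrocyte markers (rho -0.567), and -0.531 without the 2 farthest libraries. With the granule cell list Ubtf had r of 0.266 but rho of 0.626, and r of 0.622 without the 2 farthest libraries, DKO SD 1 among them. With the Purkinje cell list it had 0.308, rho 0.572 and 0.638 in the same order. Wdr18 had -0.541 with the choroid plexus list (rho -0.461) and 0.529 with the microglia list (rho 0.483). It was not particular to these lists: with the Purkinje cell list it had -0.486 (rho -0.521, and -0.537 without the 2 farthest libraries). With the oligodendrocyte list r was 0.469 and with the granule cell list -0.420. For Rrn3, Polr1c and Ncl no list passed an r of 0.4 in either direction over the 40 libraries. Within groups Ncl had 0.418 with the granule cell list and 0.402 with the Purkinje cell list, and Rrn3 had 0.408 with the astrocyte list. These are some of the 90 relations between 10 members and 9 lists, given as descriptions.

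**Figure D4:**
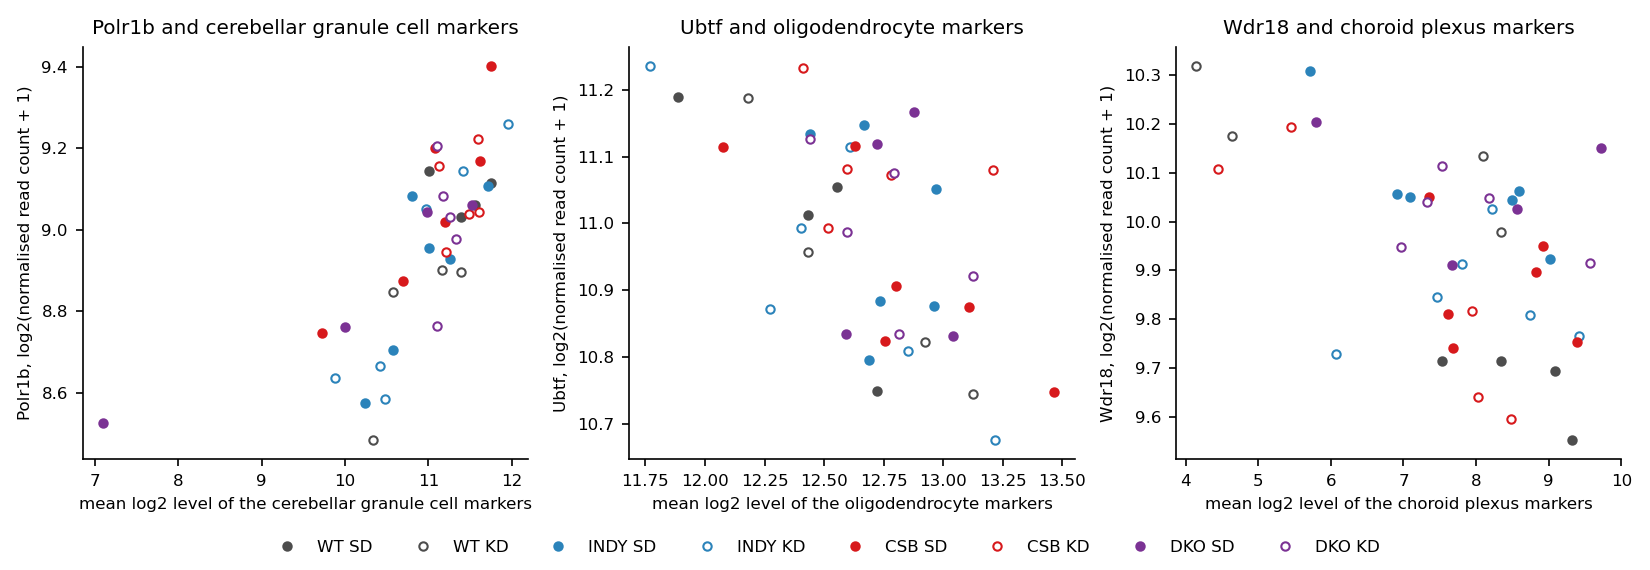
Log2(normalised read count + 1) of Polr1b, Ubtf and Wdr18 (y axes) against the mean log2 level of granule cell, oligodendrocyte and choroid plexus markers (x axes) in each of the 40 libraries, coloured by genotype, with filled points for SD and open points for KD. Polr1b rises with the granule cell level (r = 0.730), and the point at a granule cell level of 7.10 is DKO SD 1.

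The other genes of the pathway were read as lists, which include the members. Among 13 subunits of RNA polymerase I, those shared with other polymerases included, none was called in the average CSB comparison, which called 0.796% of all tested genes. All 13 lay above 0, Polr1a by only 0.002, where 52.1% of all genes did. The median log2 difference was 0.094 against 0.007 for all genes. The 8 subunits specific to RNA polymerase II lay much the same, with 7 above 0, a median of 0.079 and none called. Of the 13, 2 had an unadjusted p under 0.05, against 18.8% of all genes. They were the shared subunits Polr2l, at 0.19 (adjusted p = 0.0961), and Polr2e, at 0.15 (adjusted p = 0.117). Initiation, termination and rDNA chromatin factors, 20 genes, had 11 above 0 and none called, with a median of 0.002. Of 16 proteins of box C/D and H/ACA small nucleolar RNPs, 15 lay above 0 with a median of 0.061, and none was called. Factors of the small subunit (48 genes, 37 above 0, median 0.051), of the large subunit (56, 39 above 0, 0.025) and the nucleases and RNA exosome (27 of 29 tested, 19 above 0, 0.040) had no call either.

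The call among 21 subunits and factors specific to RNA polymerase III was Polr3e, a subunit of that polymerase. Its means were 593.3 ± 93.6 (SD, n = 6) in CSB SD, 579.7 ± 31.6 (n = 5) in CSB KD, 599.2 ± 22.1 (n = 4) in DKO SD and 601.4 ± 43.7 (n = 5) in DKO KD. In WT SD, WT KD, INDY SD and INDY KD they were 668.4 ± 31.1 (n = 4), 693.6 ± 133 (n = 4), 713.6 ± 41.0 (n = 6) and 704.2 ± 55.6 (n = 6). All 4 means with lower Ercc6 lay below all 4 others, though single libraries overlapped: CSB SD reached 747.8 and WT KD went down to 548.2. Polr3e fell by 0.23 on the log2 scale (standard error 0.05, limma, adjusted p = 0.00872), and it was called in each of the 48 alternatives, with values from -0.31 to -0.20 (-0.25 without the library labelled WT KD 25). Polr3e was called in none of the 4 comparisons behind the average. Its limma adjusted p was 0.588 in CSB minus WT on KD, and 0.719 on SD and 0.505 on KD in DKO minus INDY. It was the only call among the 209 tested genes of all lists in the average, 0.478%, below the 0.796% of all tested genes. An unadjusted p under 0.05 was found in 11% of the list genes, against 18.8% of all. Of the polymerase III list 14 genes lay above 0, with a median of 0.038.

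On SD, DKO minus WT called 11 of the 209 genes tested in the lists, 5.26%, Wdr18 among them, against 5.92% of all tested genes. The share in the lists was thus near that of all genes, and the 10 higher and 1 lower are named as a description. The higher ones in small subunit assembly were Rrp7a (0.54, adjusted p = 0.0351), Utp4 (0.39) and Utp3 (0.39), and those of the large subunit, beside Wdr18, were Mrto4 (0.41), Ddx54 (0.41) and Rrp1 (0.22). Rpp25, a protein of RNase P and RNase MRP, had 212.2 ± 31.5 in DKO SD and 109.6 ± 24.3 in WT SD (n = 4 each), a log2 difference of 0.96 (adjusted p = 0.0350). Nolc1, a nucleolar chaperone of small nucleolar RNPs, lay at 0.29 and Polr2g, a subunit of RNA polymerase II, at 0.40. Kdm2b, a histone demethylase, was the lower one, at -0.52 (adjusted p = 0.0351). Each of the 11 lost its call in 9 to 36 of the 49 alternatives, and 10 of them without DKO SD 1.

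In DKO minus INDY on KD the lists held 1 call among 209 genes, Nvl, an ATPase of large subunit maturation, where 0.0983% of all tested genes, 21, were called. Its mean was 1193 ± 243 (SD, n = 5) in DKO KD and 1761 ± 369 (n = 6) in INDY KD, a log2 difference of -0.56 (adjusted p = 0.0277). It ended with the fit of only these 2 groups (adjusted p = 0.769), without the high-forebrain libraries (adjusted p = 0.155), and without DKO KD 2, 24 or 47 or INDY KD 20, 21 or 45 (adjusted p from 0.0795 to 0.151). The 13 polymerase I subunits had no call in any of the 22 comparisons.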

How the data were processed

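RNA of 40 cerebellum libraries was analysed from 1 table, whose signal per gene and library was deposited as a normalised estimate of the reads (the authors' scaling). The submitters' processing notes name Bowtie2, Salmon, DESeq2 and the build mm9, without versions or roles. The values are not whole reads, so no count model was used and depth is unknown. Gene IDs were matched to GENCODE M21 on GRCm38 (54097 of 54331 without their version), so printed positions are those of the annotation.

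Values were taken as log2(value + 1) and fitted with limma 3.58.1 in R 4.3.3 (trend and robust variances), with 1 mean per group over all 8 groups and no covariate. Differences are on that scale, which understates changes of low genes. P-values are two-sided and Benjamini-Hochberg adjusted over 21367 genes in each of 22 comparisons, and called means an adjusted p under 0.05. A marker level is the mean log2 value of a list. The fit was tested on simulated data, and similar transcripts were sought with minimap2 2.31-r1302 (identity of at least 95%), and figures drawn with matplotlib.

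Named were the 10 members, Ercc6 and Slc13a5, up to 5 called genes per list, direction and comparison, and the 3 genes closest to each member by r. Gm6768, Gm5812, Tulp4, Polr2l and Polr2e were named after their values were seen. Members, lists, comparisons and rules were chosen with earlier results of these data known. Alternatives were pseudocounts of 0.5 and 5, no filter, rescaling, only the groups compared, marker covariates, leaving out the 12 libraries with a forebrain level above 6, and leaving out each library. The covariate sets with Purkinje and granule cell levels and with the choroid plexus level were chosen after seeing the data.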

Additional observations from a re-analysis of the deposited data

Results flagged for a closer look

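In 5 of the 80 groups of values (10 members in 8 groups), 1 library lay far from the others of its group by Dixon's ratio, and chance alone flags about 1 in 20 groups. Polr1b was 356.9 in the library labelled WT KD 25, where the other 3 WT KD libraries lay between 459.4 and 477.4. Polr1c was 428.6 in CSB SD 30, above the other 5 libraries at 343.8 to 373.9. Rrn3 was 2005 in WT SD 42, above the other 3 at 1874 to 1892. Wdr18 was 748.9 in WT SD 41, below the other 3 at 827.5 to 839.6, and 1269 in INDY SD 14, above the other 5 at 969.9 to 1068.

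The diet response of Wdr18 differed between INDY and WT by -0.711 on the log2 scale (limma, adjusted p = 0.0429), with KD above SD in WT (1141 and 813.7) and below it in INDY (922.7 and 1081). The difference was -0.663 without INDY SD 14 (adjusted p = 0.112) and -0.671 without WT SD 41 (adjusted p = 0.234).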

How the results depend on the processing

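No paired analysis was possible because the groups share no replicate numbers. Of the 22 comparisons, 19 kept their count of called members in every alternative. The call in DKO minus WT on SD became 0 with no filter, with only the groups compared, and with the forebrain and liver or the forebrain, Purkinje cell and granule cell levels as covariates (Wdr18 adjusted p 0.0562, 0.0515, 0.326 and 0.226), and lay between 0 and 1 with single libraries left out. The call in the diet response of INDY against WT became 0 with no filter, only the groups compared, each of the 3 covariate sets and without the high-forebrain libraries (adjusted p 0.0514 to 0.194), and lay between 0 and 1 with single libraries left out. In the diet response of DKO against WT the count lay between 0 and 1 with libraries left out. The cause was not tested. All genes called in the CSB average numbered 170, and 120 to 1379 with libraries left out (1379 without INDY KD 22, 959 without DKO KD 23), 727 without the high-forebrain libraries and 302 with the 3 neuronal and forebrain levels. In DKO minus WT on SD they numbered 1265, and 12 (without WT SD 41) to 2669 (without INDY KD 20), with 6 and 9 under the covariate sets, 69 with no filter and 694 with only the groups compared. Members near 0 in the CSB average changed sign: Polr1a lay between -0.019 and 0.026 with libraries left out, at -0.006 with the forebrain, Purkinje cell and granule cell levels and at -0.002 with the choroid plexus level. Ncl lay between -0.018 and 0.034, and at -0.008 with the forebrain and liver levels. Without the high-forebrain libraries Ncl was 0.128, Fbl 0.182, Polr1e -0.05 and Wdr18 -0.013, and that setting leaves 1 WT KD library, assumed to vary like the other groups.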
